A study of Mus musculus with 12 samples.

Results

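The transcriptome of naive CD4 T cells was described from 6 libraries, which are all the T cell libraries among the 12 libraries of the series. They were chosen by cell type alone, and the other 6 libraries, from resting B cells lacking surface CD43, served only as a reference. The donors were C57BL/6J mice of 6 to 8 weeks, their spleens were the source of every library, and the labels name no treatment or engineered allele. The T cells form 2 groups of 3 pools of mice, 1 from females and 1 from males, numbered 4, 5 and 6 in each sex. The labels describe enrichment on beads and then a sort by flow cytometry, which among other criteria kept cells with little CD44 and no CD25. Each pool held the cells of several mice, and nothing in the labels says what the pools with the same number share. The p-values below therefore measure the spread between pools and treat the pools as independent. T cell pools of the same number deviated together, so the SEs and p-values of T against B cells can be too small.

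Naive CD4 T cells are mature lymphocytes that have not yet met their antigen. They circulate between blood, spleen and lymph nodes, read peptides on MHC class II through the T cell receptor and its CD3 chains, and depend on interleukin 7 for survival. They divide rarely and lack the cytokines and cytotoxic proteins of effector cells. CD4 recruits the kinase Lck to the receptor, and the transcription factor Tcf7 keeps naive and memory T cells in their state.

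The deposited signal is named adjusted TPM. TPM is a length-corrected share of transcripts, so that levels can be compared between genes, and how it was adjusted is not stated. Each value comes with a lower and an upper bound. In the T cell libraries the totals ran from 799769 to 1453940 and the number of genes at 1 or more from 11122 to 11334 of 41128. Read depth is unknown. The library male T cell 6 stood apart, since 37.4% of its signal came from 1 noncoding gene, Yam1 (chromosome 17, 39846958 to 39848788, GRCm38), and protein-coding genes took 38.5% of it against 53.6% to 57.1% in the other 5. Yam1 had 140561, 32575 and 72323 in female pools 4, 5 and 6, and 168420, 42071 and 543238 in male pools 4, 5 and 6. The gene Lars2, for mitochondrial leucyl-tRNA synthetase, was high in the same libraries, with 112633 in male T cell 6 and 12029 to 35948 in the others. Without these 2 genes the totals were close to each other, from 705684 to 838017.

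**Figure D1:**
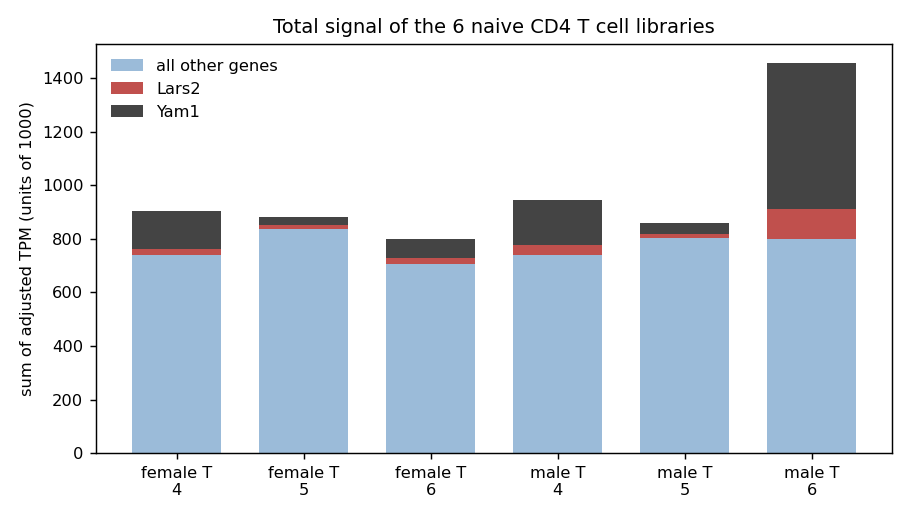
Sum of adjusted TPM, in units of 1000, for each of the 6 naive CD4 T cell libraries, split into Yam1, Lars2 and all other genes. Male T cell 6 has the tallest bar, and its excess is made of Yam1 and Lars2.

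The labelled cell type was checked first against 5 markers, and every library carried all of them. Cd3d, a chain of the T cell receptor complex, had a lowest, median and highest value of 166, 198 and 216 in the T cell libraries, while no B cell library exceeded 0.263. Cd3e, another chain of that complex, had 62.3, 66.8 and 76.6, against at most 0.079 in B cells. Cd4 itself had 179.6, 191 and 203, against at most 0.00594. The coreceptor kinase gene and the transcription factor gene were as plain. Lck had 260.4, 303 and 325 in T cells and 8.94 to 13.4 in B cells. Tcf7 had 342, 374 and 388, against at most 0.764. None of the 5 overlapped between the cell types, and all 6 T cell libraries lay above all 6 B cell libraries for 29.7% of all genes tested.

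Genes behind the sort were looked at next. Cd44 had 5.89, 8.35 and 10.7 as the lowest, median and highest value. Il2ra, which encodes CD25, was at 0.158 to 0.34 in the pools numbered 4 and 5 but at 5.0 and 4.11 in the female and male pools numbered 6. These genes were used to choose the cells, so their levels describe the sort. In bulk libraries, fewer cells of a type and less RNA per cell cannot be told apart.

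Most of the table was silent in these cells. Of 41128 genes, 24587 (59.8%) were under 0.1 in all 6 T cell libraries, and 10650 (25.9%) were at 1 or more in all 6. The latter held 9363 protein-coding genes, which is 43.8% of the protein-coding genes in the table, and 1287 genes of other types. Classed by the mean of the 6 libraries, 4688 genes lay between 1 and 10, 5864 between 10 and 100, 547 between 100 and 1000, and 108 at 1000 or above. The last class held 81 protein-coding and 27 other genes, and among the 81 were 61 ribosomal protein genes and 3 mitochondrially encoded genes. A small set of genes thus carried the protein-coding signal. The highest 97 to 263 protein-coding genes, depending on the library, made up its first 50%, and 201 to 330 did so without Lars2.

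The ranking was shared between pools. The top 100 genes of all types had 82 members in common in the 6 libraries, and the top 100 protein-coding genes had 97. Of those 97, 71 were ribosomal protein genes. Lars2 had the highest mean of the protein-coding genes, 37122 ± 37963 (SD, n = 6), with an SD above the mean. It was high in the same libraries as Yam1, and whether its level reflects transcripts of the gene was not tested. After it came Eef1a1, which brings aminoacyl-tRNAs to the ribosome, with 9954 ± 1171 (SD, n = 6). Tpt1, for a translationally controlled protein, had 7651 ± 732 (SD, n = 6). Then came the mitochondrially encoded cytochrome oxidase gene mt-Co1 (6987 ± 824), the actin gene Actb (5229.6 ± 769), Rps24, and the actin-sequestering thymosin gene Tmsb4x (3753 ± 288), each with n = 6. The other 8 of the highest 15 were Rpl13a, mt-Co3, Rplp1, Rps3a1, Rplp0, Rps4x, Rpl5 and Rpl12. Housekeeping and translation genes therefore filled the top of the list, and genes particular to T cells began lower. The highest of the T cell genes named here, Ms4a4b, ranked 102 among protein-coding genes, Cd3g 125, Tcf7 143 and Lck 168.

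**Figure D2:**
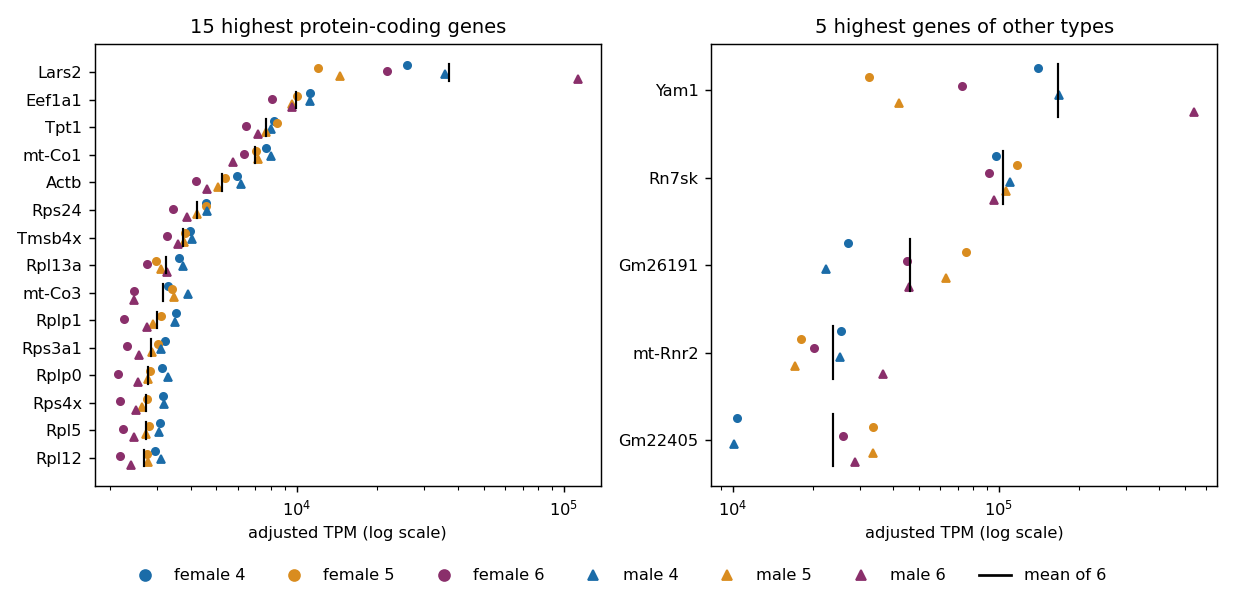
Adjusted TPM on a log scale of the 15 protein-coding genes and the 5 genes of other types with the highest mean in T cells, with 1 point per library and a bar at the mean of 6. Lars2 and Yam1 spread most, with male T cell 6 highest, and the ribosomal protein genes lie close together.

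Ribosomal protein genes were abundant as a family. Of 84 in the table, 79 were at 100 or more in all 6 T cell libraries, the median of their means was 1416, and 3 (Rpl3l, Rpl10l and Rpl39l) were under 1 in every library. Transcripts of this family are known for a run of pyrimidines at their first bases, the terminal oligopyrimidine motif, through which their translation responds to growth signals. In RefSeq windows of GRCm38.p6, an annotated start at C followed by at least 4 further C or T bases was found for 13 of 64 ribosomal protein genes with a window (20.3%) and for 3.01% of all genes with one. A match describes the annotated first base only. The 4 such genes with the highest means are shown from 15 bases before to 14 bases after the start, with the pyrimidine run in capitals.
Rps6, chr4:86857353-86857382, minus strand: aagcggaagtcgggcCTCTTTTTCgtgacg
Rps15a, chr7:118116133-118116162, minus strand: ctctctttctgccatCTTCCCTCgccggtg
Rps18, chr17:33955651-33955680, minus strand: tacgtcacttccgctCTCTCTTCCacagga
Rps27, chr3:90213634-90213663, minus strand: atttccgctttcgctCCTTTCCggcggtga
These 4 genes had means in T cells of 2442, 2389.9, 1998 and 1604. None of the 11 genes with a window among the 15 highest protein-coding genes had such an annotated start.

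Structural RNAs were the other abundant class. Rn7sk, the RNA that holds back the elongation factor P-TEFb, was the most even of them, with 91467, 102054 and 117290.0 as the lowest, median and highest value. Gm26191 and Gm22405, which the GENCODE annotation calls Rn7s2 and Rn7s1, are copies of the RNA of the signal recognition particle, which targets proteins to the endoplasmic reticulum. Their transcripts are identical over all 300 bases, so reads could not be assigned to 1 of them, and only their sum is a measure. The sum was 37369, 108418 and 70960.1 in female pools 4, 5 and 6 and 32384, 96829 and 74584 in male pools 4, 5 and 6. Both pools numbered 4 were thus the lowest and both numbered 5 the highest. Rmrp, the RNA of RNase MRP, and Rpph1, the RNA of RNase P, had means of 20437 and 9810.7.

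The deposited bounds showed where a level was precise. The upper bound divided by the lower, as a median over genes, ran from 176 to 198 over the 6 libraries for genes under 0.1, from 2.96 to 5.54 between 0.1 and 1, from 1.30 to 1.55 between 1 and 10, from 1.11 to 1.19 between 10 and 100, from 1.05 to 1.08 between 100 and 1000, and from 1.03 to 1.04 at 1000 or above. Among protein-coding genes alone the mean over libraries of this median was 54.1 in the lowest class, against 185 for all genes. The count of expressed genes moved little with the bounds. With the lower bound at 1 or more in all 6 libraries in place of the estimate, 10098 genes were left.

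Named genes followed the same course. The median ratio was 1.03 for Tcf7, 1.04 for Cd4 and 1.08 for Cd3e. It was 1.35 for Ikzf2, 1.70 for Foxp3 and 2.35 for Il2ra. Pools often differed by more than these bounds. For genes with a mean from 10 to 100, the intervals of 2 pools of the same sex were apart in 22.6% to 51.7% of genes, and those of a female and a male pool of the same number in 15.7% to 21.9%.

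**Figure D3:**
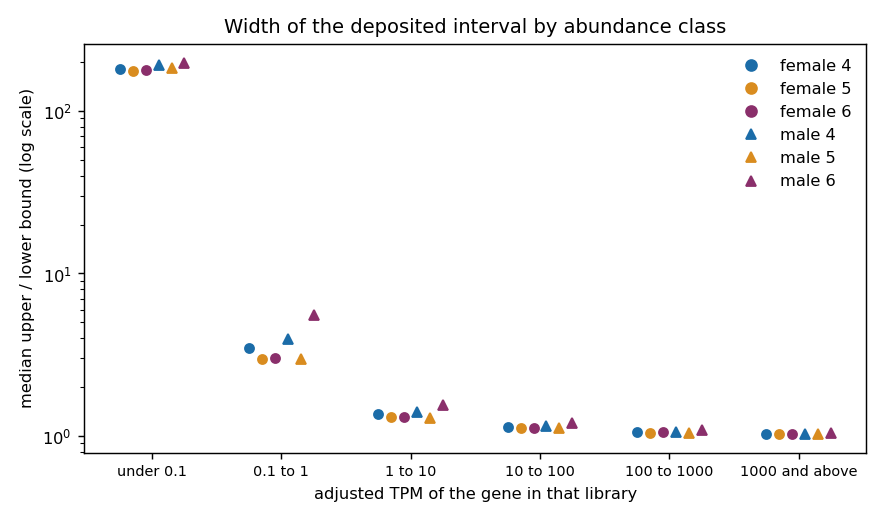
Median ratio of the deposited upper to lower bound, on a log scale, for genes in 6 classes of adjusted TPM, with 1 point per T cell library. The ratio falls from 176 to 198 in the lowest class to between 1.03 and 1.04 in the highest.

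Against B cells, 5208 of 12520 genes tested (41.6%) were higher in T cells and 3926 (31.4%) lower, together 73%, by limma with a Benjamini-Hochberg adjusted p under 0.05. The median log2 difference of all genes was 0.09 with the values as deposited. It was -0.25 after scaling each library to sum to 1000000 and -0.01 under median-ratio scaling. The direction of a small difference therefore holds for the stated scaling alone. For T against B cells under the rescaled total, 1985 genes were higher in T cells and 4812 lower. Fold changes are differences of log2(adjusted TPM + 1) and understate the change of low genes. The gene groups below are given by their counts, to be read against 41.6% and 31.4%.

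The receptor complex and its first signalling partners were the plainest group. All 7 chains tested, Cd3d, Cd3e, Cd3g, Cd247 and the receptor constant segments Trac, Trbc1 and Trbc2, were higher in T cells, with a median log2 difference of 8.05. Cd3g (chromosome 9, 44969572 to 44980431, GRCm38), a further CD3 chain, had 372, 483 and 516 as its lowest, median and highest value in T cells and did not exceed 0.142 in B cells. Its log2 difference of 8.79 (SE 0.08, adjusted p = 1.2e-16, limma) was, outside the receptor segments, the largest towards T cells among the genes described here. Of 18 signalling genes, 15 were higher in T cells, 2 were lower and 1 did not pass, with a median of 5.22. The adaptor gene Lat had 228 ± 19.1 (SD, n = 6) in T cells and 0.406 ± 0.157 (SD, n = 6) in B cells. The kinase genes Prkcq (175 ± 6.3) and Zap70 (71.0 ± 7.44) and the thymocyte selection gene Themis (108 ± 6.51), each with n = 6, were all under 1 in every B cell library. Csk, the kinase that holds Src family kinases inactive, was among the lower genes, with a log2 difference of -0.74 (adjusted p = 1.4e-06, limma).

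Surface proteins of T cells rose with them. All 11 genes of that list, which holds Cd4, were higher in T cells, among them the costimulatory receptor gene Cd28, the inhibitory receptor gene Cd5, and Thy1, whose levels were 209, 230.1 and 250.2 as the lowest, median and highest in T cells, with B cells no higher than 0.131. The smallest difference in the list was that of Ptprc, which encodes the phosphatase CD45 of all leukocytes, at 0.41 (adjusted p = 0.0011, limma). It was no longer past the threshold with a rescaled total, where 10 of the 11 were called.

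Genes of the naive state and of homing were mixed. Of 19, 13 were higher in T cells, 2 were lower and 4 did not pass, with a median of 1.45. Il7r, the interleukin 7 receptor chain, had 206, 218 and 229 as its lowest, median and highest value in T cells, with B cells no higher than 0.828. Igfbp4 (191 ± 24.1), Als2cl (163 ± 12.7) and Dapl1 (91.9 ± 5.62), each with n = 6, were under 1 in every B cell library. The chemokine receptor gene Ccr7 and the sphingosine 1-phosphate receptor gene S1pr1, which steer entry to and exit from lymphoid tissue, were expressed in both cell types, at 233 ± 22.7 and 277 ± 35.0 (SD, n = 6) in T cells and 85.2 ± 11.9 and 131 ± 14.4 (SD, n = 6) in B cells. Their log2 differences were 1.45 and 1.08 (adjusted p of 4.1e-08 and 6.3e-07, limma). The 2 lower genes were the transcriptional repressor genes Foxp1 (-0.85) and Bach2 (-1.29).

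Among 18 transcription factor genes, 11 were higher in T cells, 4 were lower and 3 did not pass, with a median of 0.87. Tcf7 and its relative Lef1 were the highest of the T lineage factors, and Lef1 had 257, 269 and 283 as its lowest, median and highest value. Bcl11b, which maintains T cell identity, had 94.3 ± 5.43 (SD, n = 6), with at most 0.0211 in B cells. Gata3, needed for CD4 T cells and for type 2 helper cells, was much lower at 12.4 ± 1.16 (SD, n = 6), yet at most 0.00625 in B cells. The CD4 lineage factor Zbtb7b differed by 1.54 and the chromatin organizer Satb1 by 1.85. The CD8 lineage factor Runx3, at -0.47, and the inhibitor of E proteins Id3, at -0.59, were among the 4 lower genes, together with Foxp1 and Runx1. The call of Runx1 was lost when any 1 of female T cell 4 or 5, male T cell 4 or 5, female B cell 1 or 2 or male B cell 2 or 3 was left out (log2 difference of -0.20 to -0.17, limma adjusted p of 0.053 to 0.083).

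Cytokine receptor chains moved in both directions. Of 16, 10 were higher in T cells, 3 were lower and 3 did not pass, with a median of 0.22. With a rescaled total the counts turned to 5 higher and 6 lower. The chains that bind interleukin 6 kept their direction, Il6ra with 62.0 ± 2.63 (SD, n = 6) in T cells and 5.34 ± 0.642 (SD, n = 6) in B cells, and Il6st with 87.6 ± 12.1 and 5.43 ± 0.494. The interleukin 10 receptor gene Il10ra was lower in T cells, at 9.03 ± 1.69 (SD, n = 6) against 95.1 ± 19.2 (SD, n = 6). In the GIMAP family of lymphocyte GTPases, 5 of 8 were higher in T cells and 3 did not pass, led by Gimap3 (log2 difference 1.68) and Gimap4 (1.56). With a rescaled total 2 were higher and 1 was lower.

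Survival and metabolic genes showed no single direction. Of 13 genes of the BCL2 family tested, 4 were higher in T cells, 7 were lower and 2 did not pass. With a rescaled total 2 were higher and 8 lower, and the call of Bcl2 was lost. The antiapoptotic gene Bcl2 was higher (59.7 ± 10.8 against 39.9 ± 5.46), and the antiapoptotic gene Mcl1 was lower (186 ± 26.6 against 313 ± 17.3; SD, n = 6 in each). The proapoptotic genes Pmaip1, Bmf and Bid were lower, with log2 differences of -2.76, -2.75 and -1.87, and the proapoptotic gene Bbc3 was higher by 1.85. Of 16 glycolysis genes, 7 were higher, 4 were lower and 5 did not pass. Ldha, for lactate dehydrogenase, and Pkm, for pyruvate kinase, were higher by 1.34 and 1.13. Hk2, the inducible hexokinase, was at most 0.108 in T cells, with a log2 difference of -1.60.

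Translation genes were higher in T cells as well. Of 81 ribosomal protein genes tested, 79 were higher and none lower, with a median of 0.91. With a rescaled total 34 were higher and 2 lower, with a median of 0.52. Of the 13 mitochondrially encoded protein genes, 9 were lower in T cells and none higher. All 10 cell cycle genes were lower in T cells, and 7 of them were under 1 in every T cell library, including Mki67, a marker of dividing cells.

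**Figure D4:**
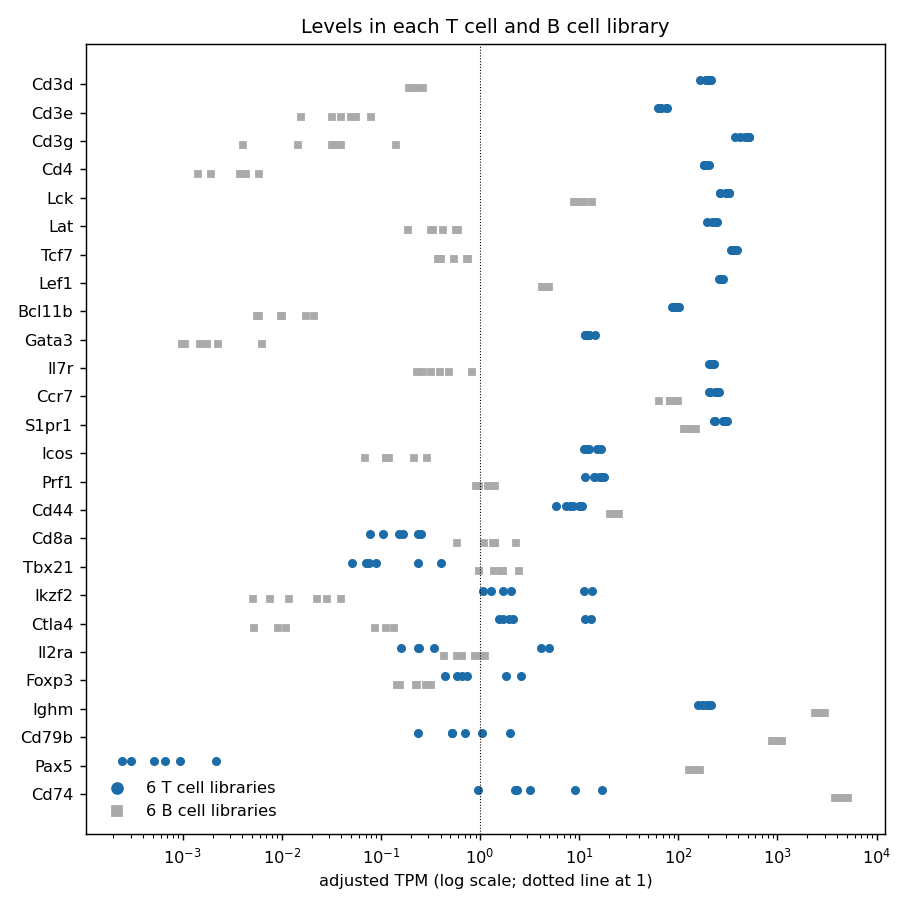
Adjusted TPM on a log scale of 26 genes in each of the 6 T cell libraries (circles) and the 6 B cell libraries (squares). Receptor, signalling and T lineage genes lie above 10 in T cells, and Ikzf2, Ctla4, Il2ra, Foxp3 and Cd74 spread widely between T cell libraries.

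Some genes were on in T cells and off in B cells. At 10 or more in all 6 T cell libraries and under 1 in all 6 B cell libraries were 115 genes, of which 85 were protein-coding and 24 were receptor segments. Since this choice used the levels, it is a description. The 85 genes had means from 11.1 to 464, with a median of 26.4, and 16 were at 100 or more in all 6 T cell libraries. Beside the genes above they included Nsg2, Cd6, Trat1, Sh2d1a, which encodes the adaptor SAP, the ligand gene Cd40lg, which gives help to B cells, and Folr4, the older symbol of Izumo1r, at 32.3 to 41.7. These and other genes of the 85 that stand outside the lists were named after their values were seen.

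Promoters of the 85 were searched for short motifs that describe binding of T lineage factors, on both strands of the 250 bases before the RefSeq start, for the 54 genes with a window. The core of the Tcf7 and Lef1 motif, CTTTGA, was found for 9 of 54 (16.7%), against 15.8% of all genes with a window and 12.3% of the protein-coding genes tested. The Runx core TGTGGT was found for 12 of 54 (22.2%), against 15.9% and 13.3%. The GATA core AGATAA was found for 3 of 54 (5.56%), against 11.4% and 7.26%. No test was made of these shares. The promoter of Cd3d holds CTTTGA on each strand, and is shown around these matches, in capitals, because Cd3d is a marker of the cell type. The window is chr9:44981693-44981752, plus strand, GRCm38.p6.
Cd3d promoter: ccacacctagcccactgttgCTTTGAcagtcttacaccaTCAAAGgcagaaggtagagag

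Markers of other cells were low, with exceptions. Of 11 B cell genes, all were lower in T cells, and 10 had means at 0.000546% to 0.189% of those in B cells. The immunoglobulin heavy chain gene Ighm was the exception, at 157, 193 and 215 as the lowest, median and highest value in T cells, which is 7.19% of its mean in B cells. Outside Ighm and the MHC class II pathway genes, no gene of the list was above 2.00 in a T cell library, and Pax5 was at most 0.00218. The summed B cell list was 193 to 217 in T cells and 12584 to 15579 in B cells. For CD8 T cells, Cd8a was at most 0.256 while Cd8b1 was at 5.25 to 8.11. All 5 neutrophil genes were at most 1.31, and their sum was at most 2.67. Of the 5 natural killer cell genes, only Eomes passed the filter, at 1.06 to 2.88. Xbp1 of the plasma cell list was another exception, with a mean of 27.0, while all 3 tested genes of that list were lower in T cells. The highest values of the monocyte and macrophage, dendritic and platelet lists were 2.52 (Lyz2), 2.59 (Zbtb46) and 0.525 (Itga2b). Of 4 dendritic genes tested, 1 was higher in T cells and 3 were lower. Globin genes varied between libraries, and the summed erythroid list ran from 3.36 to 77.4 in T cells and from 4.17 to 346 in B cells.

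Effector and helper genes were low or uneven. Of 25, 5 were under 0.1 in all 6 T cell libraries and 9 were at 1 or more in all 6. The highest gene of the list was Cd69, with a mean of 58.1 and a highest value of 97.3 in T cells. In the comparison with B cells 9 were under the filter, including those for the cytokines Ifng, Il4, Il17a, Il21 and Il2 and for the granzymes Gzma, Gzmb and Gzmk. Of the 16 tested, 5 were higher in T cells, 8 lower and 3 not past the threshold. The higher ones included the pore-forming protein gene Prf1, at 15.1 ± 2.25 (SD, n = 6), the death ligand gene Fasl, at 6.89 ± 1.01 (SD, n = 6), and the costimulator gene Icos, at 13.1 ± 2.24 (SD, n = 6). The type 1 helper factor Tbx21 was at most 0.407. The lower ones included Cxcr5 and Ccr6, homing receptors that B cells express, with log2 differences of -5.84 and -5.35.

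Protein-coding genes differed little between pools. For protein-coding genes with a mean of 10 or more, the pooled SD within sex of log2(adjusted TPM + 1) had a median of 0.12. The most even were Lpin1, a regulator of lipid synthesis (10.9 to 11.2), Suco (31.7 to 32.7), the protein kinase gene Prkch (102 to 105), the nucleoporin gene Nup88 and the cohesin regulator Pds5a. Nup88 was at 41.0 to 41.7 in female and 36.2 to 37.4 in male pools. The least even were the heat shock genes Hspa1a (1.08 to 33.5) and Hspa1b (3.40 to 73.2), the immediate early gene Fosb, the chemokine receptor gene Cxcr4 (17.4 to 101) and Lars2. The same median was 1.46 for 21 small nuclear RNAs and 1.00 for 63 small nucleolar RNAs. Over all gene types with a mean of 10 or more, pools of the same sex differed by a median absolute log2 difference of 0.13 ± 0.03 (SD over 6 pairs).

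Pools with the same number were on average closer to each other than pools of the same sex, with overlapping ranges. For protein-coding genes with a mean of 10 or more, the median absolute log2 difference was 0.071 to 0.113 for the 3 pairs of the same number and 0.085 to 0.176 for the 6 pairs of the same sex. The means of these were 0.086 and 0.129. The gene groups that follow moved with the pool number in both sexes.

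Regulatory T cell genes were higher in both pools numbered 6. All 5 genes of that list that were tested were above the other 4 pools, against 17% of all genes tested. The transcription factor gene Ikzf2 was at 13.4 and 11.3 in female and male pools numbered 6 and at 1.07 to 2.07 in the others. The inhibitory receptor gene Ctla4 was at 13.2 and 11.4, against 1.57 to 2.15. The receptor gene Il2ra was described above, and the defining factor Foxp3, which did not pass the filter, was at 2.57 and 1.82, against 0.44 to 0.735. Many genes of the T cells themselves were lower in both pools numbered 6. Below the other 4 pools were 6 of 7 genes of the receptor complex, 8 of 11 surface genes and 4 of 5 identity markers. This was so for 18.6% of all genes tested and 24.8% of protein-coding genes with a mean of 10 or more. These lists share members, and the drop was not particular to T cell genes. Also below were 9 of 15 cytoskeleton and general genes and 41 of 81 ribosomal protein genes. Of 16 cytokine receptor genes, 8 were above and 3 below. The 18 transcription factor genes were split, with 6 above and 5 below in both pools numbered 6. The summed receptor complex was 1822 and 2065 there, against 2338 to 2577 in the others, and the intervals were apart for 4 of its 7 genes (Cd3g, Trac, Trbc1 and Trbc2), as in 2.52% of all genes. Among the regulatory T cell genes, in 4 of the 5 (Ctla4, Ikzf2, Il2ra and Nrp1) the deposited intervals were also apart, as in 3.06% of all genes tested. The gate excluded CD25, the product of Il2ra.

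Other genes moved with these. The class II genes Cd74 (16.9 and 9.16, against 0.963 to 3.20), H2-Aa (12.3 and 5.85, against 0.17 to 1.57) and H2-Ab1 were higher in both pools numbered 6, while Ighm was lower there (157 and 172, against 189 to 215). Of the 11 B cell genes, 7 were above the other 4 pools, against 17% of all genes tested, the intervals were apart for 3, and Pax5 stayed at most 0.00218. The interleukin 2 receptor gene Il2rb was at 16.1 and 16.8, against 3.92 to 5.27. Of 16 effector and helper genes 9 were above, against the same 17%, among them Cd69, Cxcr5, Maf and S100a4. Without both pools numbered 6, Ikzf2 and Ctla4 were still higher in T than in B cells, while Il2ra turned from a log2 difference of 0.21 (adjusted p = 0.66, limma) to -0.51 (adjusted p = 0.0028, limma). Yam1 was high in only 1 of these 2 pools. The part of other cells in these levels was not tested.

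Immediate early genes, which respond within minutes to stimulation or handling, had the opposite order. Fos was at 171 and 189 in female and male pools numbered 4, at 108 and 131 in those numbered 5, and at 45.2 and 41.5 in those numbered 6. Junb was at 235.5 and 269.5, at 161 and 164, and at 112 and 97.7. Of the 11 tested, 8 were above the other pools in both pools numbered 4, against 19% of all genes tested, and 8 were below them in both pools numbered 6, against 18.6%. The intervals were apart for 7 and 8 of them, against 2.74% and 2.52% of all genes. The other 3 went otherwise. Egr1 was at 5.44 to 7.05 throughout, and Egr2 and Nr4a1 were above the other pools in both pools numbered 6. Nr4a1 was at 9.90 and 11.8 there, against 5.55 to 8.21, with intervals apart. Against B cells, Junb, Ier2, Dusp1 and Egr2 were higher in T cells, Zfp36 was lower and Fos did not pass (adjusted p = 0.36, limma), with B cell values of Fos from 16.6 to 174. With a rescaled total the list turned from 4 higher and 1 lower to 1 higher and 4 lower, and the calls of Junb, Ier2 and Egr2 were lost. The call of Dusp1 was lost when any 1 of female T cell 4 or 5, male T cell 4 or 5, female B cell 2 or 3 or male B cell 3 was left out (log2 difference of 0.62 to 0.92, limma adjusted p of 0.064 to 0.086).

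Most small nuclear and small nucleolar RNAs were low in both pools numbered 4. Of 21 small nuclear RNAs, which form the spliceosome, 20 were below the other 4 pools, and of 63 small nucleolar RNAs, which guide modification of ribosomal RNA, 53 were, against 8.39% of all genes tested. Gm24950, annotated as a small nuclear RNA, is identical to Rnu2-10 and 2 further genes over its 191 bases, so its level cannot be separated from theirs. The counts took each gene by itself, also where copies are identical, so their members need not be independent. It was at 424 and 256 in female and male pools numbered 4 and at 1765 to 4056 in the others. Snord15b was at 873 and 699.9, against 1879.7 to 4329. Snora73a was at 1798 and 1393, against 2612 to 3773. Other small RNAs went both ways. Rmrp was also below the other pools in both pools numbered 4, at 14065 and 14661 against 21353 to 24416. So were Rpph1, at 6917 and 7384 against 9763 to 12078, and the sum of Gm26191 and Gm22405 given above. Scarna2, a guide RNA of the Cajal body, was higher in both pools numbered 4, at 1384 and 1441 against 994 to 1053. Of 14 miscellaneous RNAs 3 were above and 5 below there, against 19% and 8.39% of all genes tested. In the same 2 pools 70 of 81 ribosomal protein genes were above the other 4, with a median log2 difference of 0.27. This was so for 19% of all genes tested and 27.7% of protein-coding genes with a mean of 10 or more. It also held for 12 of 15 cytoskeleton and general genes. The replication histone genes, whose transcripts lack a poly(A) tail, were lowest in the pools numbered 6, with 24 of 30 below the other 4 pools against 18.6% of all genes tested. In both pools numbered 4, 17 of these 30 were above the other 4, against 19%.

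**Figure D5:**
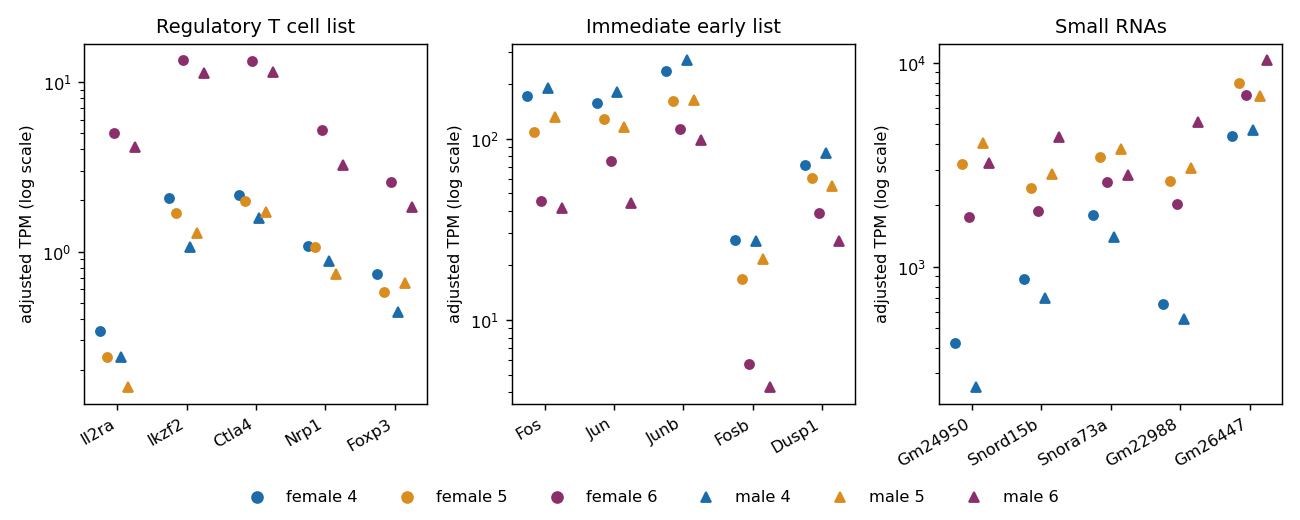
Adjusted TPM on a log scale in each T cell library for 5 regulatory T cell genes, 5 immediate early genes and 5 small RNAs, with colours for the pool number and circles and triangles for females and males. The pools numbered 6 are highest for the first set and lowest for the second, and those numbered 4 are lowest for the third.

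Between females and males within T cells, 13 of 12520 genes (0.104%) passed the threshold, of which 6 were female-high and 7 male-high. Before adjustment 319 were at p under 0.05, and 8.49% did not overlap between the sexes. In a fit of the T cell libraries alone with the pool number as a replicate block, 5 genes were past it. These were Xist, the RNA that coats the inactive X chromosome, and the Y-linked genes Ddx3y, Eif2s3y, Kdm5d and Uty. The X-linked demethylase genes Kdm6a (38.7 to 42.0 in females and 23.8 to 27.2 in males) and Kdm5c (33.0 to 33.9 and 21.8 to 23.5) were past it only without the block. The other 6 calls were low genes with wide bounds. The small nucleolar RNAs Gm22322 and Gm23077, with log2 differences of 1.28 and 0.98, had 422 and 76.8 as their median ratio of upper bound to lower bound. The pseudogene Gm16550 had 58.2 and the Y-linked noncoding gene RP24-540G19.3 had 54.9. The call of Gm22322 was lost without female T cell 4 or any 1 male T cell library, that of RP24-540G19.3 without female T cell 4 or 5, and that of Gm16550 without any 1 of 5 T cell libraries (all but female T cell 6) or of 4 B cell libraries (all 3 of females and male B cell 2). No gene differed in its sex effect between T and B cells, with a smallest adjusted p of 0.086 (limma) and 295 genes at an unadjusted p under 0.05.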

How the data were processed

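RNA of spleen B and T cells was sequenced from ribosomal RNA-depleted, strand-specific libraries with spike-in RNA (not analysed here). The authors deposited a signal per gene, adjusted TPM, with a lower and an upper bound. The submitters' processing notes name Trim Galore, FastQC, STAR and mm10. How levels were quantified and adjusted, and which level the bounds have, is not given in the sources used here, read depth is unknown, and some labels name genomic DNA as the molecule.

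Gene types and positions came from GENCODE M21 (40254 of 41128 gene IDs matched, 97.9%), and sequences from RefSeq. Genes at 1 or more in at least 3 of 12 libraries were kept (12520 genes). log2(adjusted TPM + 1) was fitted with 4 group means in limma 3.58.1 (R 4.3.3), with an intensity trend, two-sided moderated tests and Benjamini-Hochberg adjustment over all genes tested. Python 3.11.15, numpy 2.4.6, pandas 2.3.3 and matplotlib 3.10.9 were used otherwise.

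Named genes were the 15 highest protein-coding and 5 highest other genes, the 10 largest differences towards T cells among genes whose T cell mean was 5 or more on the log2 scale, receptor segments left out, the 5 most and 5 least variable genes, the 5 largest sex differences in each direction, and members of 25 gene lists. The members and lists were chosen with earlier results of these data known. Deviations of female and male T cell pools of the same number correlated at 0.72, 0.55 and 0.52 over the genes tested. The pool number therefore served as a replicate block in a second fit of the sexes within T cells. The fit of T against B cells had no such block.

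In simulated data 200 of 12520 genes, all with a mean above 1 on the log2 scale, were changed by 1 on that scale. Of the changed genes 96.9% were recovered for T against B cells and 91.6% for the sexes within T cells. The simulated noise was independent between libraries, without the shared deviations of pools of the same number. Alternatives were the pseudocount, the filter, 2 rescalings, the block, and leaving out libraries. Some genes and sequences are not reported here.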

Additional observations from a re-analysis of the deposited data

Results flagged for a closer look

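In 7 of 43 measures over the 6 T cell libraries, 1 library lay far from the other 5, by Dixon's test at the 95% level, which chance alone passes in about 1 of 20 measures. Of these, 6 concerned male T cell 6. Its total was 1453940, against 799769 to 944351 in the others. Yam1 was at 543238, against 32575 to 168420, and Lars2 at 112633, against 12029 to 35948. The share of protein-coding genes was 38.5%, against 53.6% to 57.1%, and the share of its 10 highest genes was 63.2%, against 38.2% to 43.8%. Mitochondrially encoded genes took 2.16% of its protein-coding signal, against 2.87% to 3.25%. These measures share the signal of Yam1 and Lars2. The last measure was the number of genes at 1 or more, which was 11334 in female T cell 6 and 11122 to 11197 in the others.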

How the results depend on the processing

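Of 79 values of the summary results under alternatives, 71 stayed near the reported one. Counts were judged by their size alone, not by direction or by which genes passed. T against B cells with a rescaled total was thus taken as near, at 6797 genes against 9134. Its split was 1985 higher and 4812 lower, against 5208 and 3926, and 5892 calls were shared. Without the filter on low values, 24591 genes differed between T and B cells and 10607 for females against males within T cells. The sex count was 24 with a pseudocount of 0.1, 23 with a rescaled total and 5 with the replicate block. The median difference between pools of the same sex was 0.30 with a rescaled total, and the bound ratio of protein-coding genes alone was 54.1 under 0.1 and 2.56 between 0.1 and 1. The cause was not tested. The direction turned for 2 genes named above. Il2ra was at -0.063 with a pseudocount of 0.1, between -0.16 (without female T cell 6) and 0.41 when 1 library was left out, -0.14 without male T cell 6 and -0.51 without both pools numbered 6. With a rescaled total, Actb was at -0.070. Leaving out 1 of the 12 libraries at a time gave 8717 to 9193 genes for T against B cells and 9 to 14 for the sexes. Leaving out 1 T cell library at a time gave 10669 to 10724 expressed genes and 82 to 85 shared genes of the top 100. The pool difference was then 0.123 to 0.146. Leaving out both pools numbered 6 or both numbered 4 was chosen after seeing the data. It gave 5248 higher and 3985 lower genes without the former, and 4771 and 3703 without the latter. Precision is limited by the unknown depth, the unstated interval level and 3 pools per sex.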
